A study of Mus musculus with 8 samples.

Results

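RNA from mouse T helper 17 (Th17) cells lacking the miR-183/96/182 microRNA cluster was set against RNA from Th17 cells carrying a control vector, gene by gene. The knockout group was 2 libraries of miR-183C-/- cells that had not been transduced, miR-183C being the labels' name for the cluster. The control vector group was 2 libraries of cells transduced with the control vector, whose genotype at the cluster the labels do not state. Wild type, the genotype's own control, was 2 libraries of untransduced miR-183C+/+ cells, and 2 more libraries came from cells transduced with a miR-96 vector. All 4 groups were on the C57BL/6J background, were cultured under the Th17(23) condition, taken on day 4 to 5 and sorted for GFP, although where GFP comes from in untransduced cells is not stated. Knockout and control vector cells belong to separate experiments, so that genotype, transduction and experiment cannot be told apart between them. Age, sex and the number of animals are not given in the sources used here, and nothing says that duplicates came from separate animals or cultures, so p-values measure only the spread between these libraries, which may be technical. Genes were taken when they had a symbol and at least 10 counts in 2 or more of the 4 libraries, which left 11534 of 24426 genes.

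Th17 cells are CD4+ T cells that secrete interleukin 17A (IL-17A) and IL-17F, and they act in defence of mucosal surfaces and in autoimmune inflammation. IL-23 and IL-1 signalling push them towards a tissue-damaging form. MicroRNAs are short RNAs that pair through their seed, bases 2 to 8, with sites in the 3′ untranslated region (3′ UTR) of messenger RNAs and lower the level or the translation of these messages. The miR-183/96/182 cluster is made as 1 transcript and is best known from sensory cells; in T cells its members have been reported to act on Foxo1, which encodes a transcription factor of T cell quiescence and homing.

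The 3 guide strands of the cluster are shown because the knockout removes them and because sites for them are counted among the genes below. All 3 are on the minus strand of chromosome 6 (RefSeq, GRCm38.p6), at chr6:30169711-30169732 for miR-183-5p, chr6:30169506-30169528 for miR-96-5p and chr6:30165962-30165986 for miR-182-5p, and capitals mark the seed. They have 3 different seeds.
miR-183-5p: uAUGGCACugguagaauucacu
miR-96-5p: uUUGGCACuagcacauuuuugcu
miR-182-5p: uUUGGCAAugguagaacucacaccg

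The deposited table holds estimated counts per gene. Total counts were 7142234 and 8468649 in the knockout libraries, against 12452656 and 10237716 in the control vector libraries. Levels below are counts per 1000000 counts of a library (CPM), after scaling by trimmed mean of M values (TMM). Of the genes detected in knockout library 1, 55.6% had an estimated count that was not whole to within 0.02, against 6.39% to 7.41% in the other 7 libraries. Duplicates were not always the closest libraries: the median absolute log2 difference across the 11534 genes was 0.239 between the knockout duplicates and 0.230 between the control vector duplicates, but 0.195 between knockout library 2 and control vector library 1 and 0.182 between control vector library 2 and miR-96 vector library 1. The miR-96 vector duplicates differed by 0.248 and the wild-type ones by 0.154. From the 6 libraries of other groups, knockout library 1 differed by 0.276 to 0.474 and knockout library 2 by 0.195 to 0.303. Results that change without knockout library 1 are given with and without it. Defining markers of CD4+ T cells were present in both groups. Cd3e, a chain of the T cell receptor complex, had 234 and 200.1 CPM in the knockout libraries, against 169.9 and 178 CPM in control vector libraries, and Cd4, the coreceptor of helper cells, had 576 and 484 CPM in the knockout libraries, against 432 and 351 CPM in control vector libraries, while Cd8a of cytotoxic cells had 0.808 and 0.597 CPM in the knockout libraries, against 0.156 and 0.775 CPM in control vector libraries.

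The polyadenylated libraries do not measure the mature microRNAs, and the gene counts give no check of the deletion. Mir183, Mir96 and Mir182 were at 0 counts in both knockout and both control vector libraries. Foxo1 (chromosome 3) had 139.8 and 136 CPM in the knockout libraries, against 118 and 145 CPM in control vector libraries. The groups overlapped, and the log2 fold change of 0.07 ± 0.16 (SE) did not pass the test (adjusted p = 0.862, edgeR's quasi-likelihood test). The deposited counts held 56 genes that matched 1 annotated gene within 2000000 bases of the cluster on chromosome 6. Of these, 24 were tested and 0 were called by edgeR or by DESeq2. Their median log2 fold change was 0.04, with 1 higher and 3 lower at an unadjusted p under 0.05. Over all 11534 genes, edgeR called 0.243%, DESeq2 called 2.35% and 13.9% had an unadjusted p under 0.05. At such shares, 0 calls among 24 genes do not set the locus apart. The smallest adjusted p among these 24 was 0.194, for Smo, the transducer of Hedgehog signals, whose log2 fold change was -0.98.

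Of the 11534 genes, 28 (0.243%) differed between knockout and control vector cells at an adjusted p under 0.05 in edgeR's quasi-likelihood test, called genes hereafter. In knockout cells 23 (0.199%) rose and 5 (0.0434%) fell. Of the rises, St6galnac1, BC018473, Irgc1, Gm15645, Gm13051, Eif2s3y and Kdm5d entered the test through the knockout libraries alone. Their control vector counts were below 10, so they could only rise. The 5 that fell encode the cytokine IL-17A (Il17a), the receptor CD30 (Tnfrsf8), the GTPase-activating protein Tagap, the ADP-ribosyltransferase Parp3 and the complement component C3. Those that rose include an interferon-inducible GTPase (Gbp2b), a pair of neighbouring sialyltransferases (St6galnac1 and St6galnac2), a protease (Ctse), the urokinase receptor (Plaur), adenosine deaminase (Ada) and 3 genes of the Y chromosome. At an unadjusted p under 0.05 there were 1599 genes (13.9%), and DESeq2 called 271 (2.35%). Across all genes tested, 50.4% had a log2 fold change above 0 and 49.6% one below 0, and the median was 0.00, with a median absolute value of 0.239. In 45.1% of genes the knockout and control vector libraries did not overlap, so non-overlap alone sets no gene apart here.

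**Figure D1:**
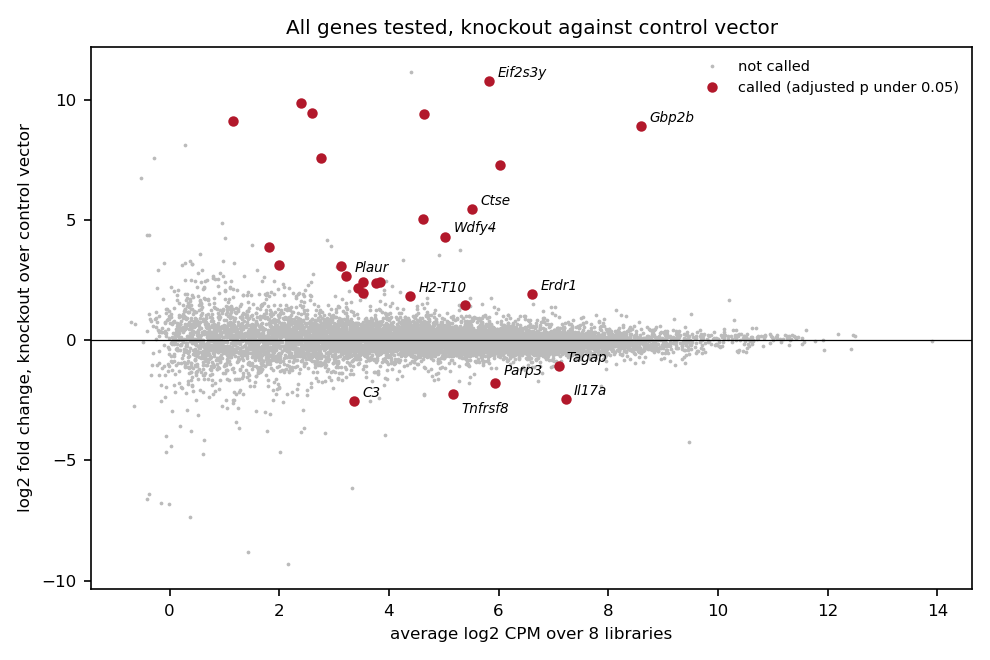
Log2 fold change of knockout over control vector (vertical axis) against average log2 CPM over the 8 libraries (horizontal axis) for 11534 genes, with the 28 called genes in red and 12 of them named. Of the called genes 23 rose and 5 fell. Some of the rises entered the test through the knockout libraries alone and could only rise. Il17a and Tagap are the called falls at the highest average level.

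Each call rests on few libraries. Only 6 of the 28 genes stayed called when each of the 4 libraries was left out in turn: Gbp2b, Ctse, St6galnac2, Wdfy4, Erdr1 and Eif2s3y. Another 11, Il17a among them, were called in none of these 4 fits. Without knockout library 1 the count was 8, without knockout library 2 it was 28 with 17 of them shared, and without control vector library 1 or 2 it was 7. A fit of the 4 libraries alone called 46 genes, 29 higher and 17 lower. The direction of every called gene was kept in all of these fits. For those that entered through the knockout libraries alone, it was fixed beforehand.

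Il17a, which encodes the signature cytokine of the lineage, fell in knockout cells. Its level was 14.4 and 24.5 CPM in the knockout libraries, against 122 and 91.1 CPM in control vector libraries, and the log2 fold change was -2.45 ± 0.36 (SE, adjusted p = 0.0378, edgeR). Wild-type cells had 165 and 262 CPM and miR-96 vector cells 189.7 and 327 CPM, so the knockout libraries were the 2 lowest of the 8. The change against wild type was also called, with a log2 fold change of -3.45 (adjusted p = 0.025). The fall against control vector was not called when any 1 of the 4 libraries was left out (adjusted p 0.0811 to 0.399, log2 fold change -2.89 to -2.13), nor with upper-quartile scaling (adjusted p = 0.0512), and the fall against wild type was not called without knockout library 1 (adjusted p = 0.216).

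The promoter of Il17a is shown because it is the 1 called gene among the Th17 lists. The 300 bases run from 250 before the RefSeq start site to 50 after it (chr1:20730655-20730954, plus strand, GRCm38.p6). The capitals mark 1 match, on the minus strand, to the ROR half-site AGGTCA, the core of the motif bound by retinoid-related orphan receptors, 120 bases before the start. Searched on both strands, AGGTCA was in 16.26% of 32851 promoters, so such a match is common.
Il17a promoter: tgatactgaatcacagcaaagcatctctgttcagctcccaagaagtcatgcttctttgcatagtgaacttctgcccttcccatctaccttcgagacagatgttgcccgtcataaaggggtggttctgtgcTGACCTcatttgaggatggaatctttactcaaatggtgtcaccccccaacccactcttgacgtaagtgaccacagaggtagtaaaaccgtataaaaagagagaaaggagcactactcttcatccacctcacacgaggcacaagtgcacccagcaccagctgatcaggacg

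The neighbouring cytokine gene Il17f stood lower in the knockout libraries but did not pass the test. Its level was 42 and 54.3 CPM in the knockout libraries, against 233 and 129 CPM in control vector libraries (log2 fold change -1.91 ± 0.34, adjusted p = 0.0716), and the groups did not overlap. Among the 17 genes of a Th17 core list, Il17a was the 1 gene called, 4 genes had an unadjusted p under 0.05, all lower, and DESeq2 called 2, both lower. The list's median log2 fold change was -0.37 with 12 members below 0, against 0.00 over all genes tested, and ranged from -0.46 to -0.08 over the fits tried. The transcription factor genes Rora, Ahr, Maf and Batf were not called. Rora, which encodes a retinoid-related orphan receptor, had a log2 fold change of 0.18 (adjusted p = 0.853), and Ahr, the aryl hydrocarbon receptor that senses dietary and microbial ligands, one of 0.77 (adjusted p = 0.508). Maf, which encodes a transcription factor of IL-10 and IL-21 production, had 70.7 and 83.2 CPM in the knockout libraries, against 126 and 99.3 CPM in control vector libraries (adjusted p = 0.363), and Batf, a partner of IRF4 at Th17 genes, had 47.2 and 49.7 CPM in the knockout libraries, against 66.1 and 70.2 CPM in control vector libraries (adjusted p = 0.326). Maf and Batf did not overlap between groups, knockout being the lower. Il21, a cytokine that feeds back on Th17 growth, had 452 and 594 CPM in the knockout libraries, against 599 and 909 CPM in control vector libraries (adjusted p = 0.343).

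Genes tied to the tissue-damaging form of Th17 cells gave no call against control vector. None of the 17 tested members of the pathogenic list was called by edgeR, 2 were higher and 2 lower at an unadjusted p under 0.05, DESeq2 called 1 lower, and the median log2 fold change was -0.03. That median rests on single libraries, being -0.61 without knockout library 2 and 0.06 without control vector library 2. Csf2, which encodes the inflammatory cytokine GM-CSF, had 1.75 and 12.7 CPM in the knockout libraries, against 7.11 and 10.8 CPM in control vector libraries, and Il22, a cytokine that acts on epithelium, had 0 and 1.55 CPM in the knockout libraries, against 2.66 and 0.969 CPM in control vector libraries. Both genes were low in all 4 libraries and their groups overlapped. Wild type had more, with 23.1 and 33.9 CPM of Csf2 and 8.57 and 14.5 CPM of Il22. The miR-96 vector cells had 17.4 and 45.8 CPM of Csf2 and 7.69 and 56.2 CPM of Il22. Neither gene was called in knockout against wild type (adjusted p = 0.0891 and 0.0603, edgeR). Lgals3, the galectin of the list, had the smallest p of its members, with 34.2 and 78.7 CPM in the knockout libraries, against 139 and 152 CPM in control vector libraries (adjusted p = 0.141). Bhlhe40 and Gzmb, the members with the highest average CPM, had log2 fold changes of 0.25 and 0.60 (adjusted p = 0.575 and 0.552). The receptors Il23r and Il1r1, through which IL-23 and IL-1 act, had log2 fold changes of -0.05 and -0.31 (adjusted p = 0.943 and 0.702). Il1r1 had 7.4 and 11.7 CPM in the knockout libraries and 13.6 and 10.2 CPM in control vector libraries. It had 24.1 and 42 CPM in wild type and 31.6 and 44.4 CPM in miR-96 vector cells. Against wild type Il1r1 was called lower (log2 fold change -1.79, adjusted p = 0.0267, edgeR), a call that rests on knockout library 1. Ifng, the Th1 cytokine, stood at 0 and 7.17 CPM in the knockout libraries, against 0.39 and 6.49 CPM in control vector libraries. Wild type had 119 and 274 CPM of Ifng and miR-96 vector cells 112 and 119 CPM. Knockout and control vector cells were thus both low where wild type and miR-96 vector cells were high.

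**Figure D2:**
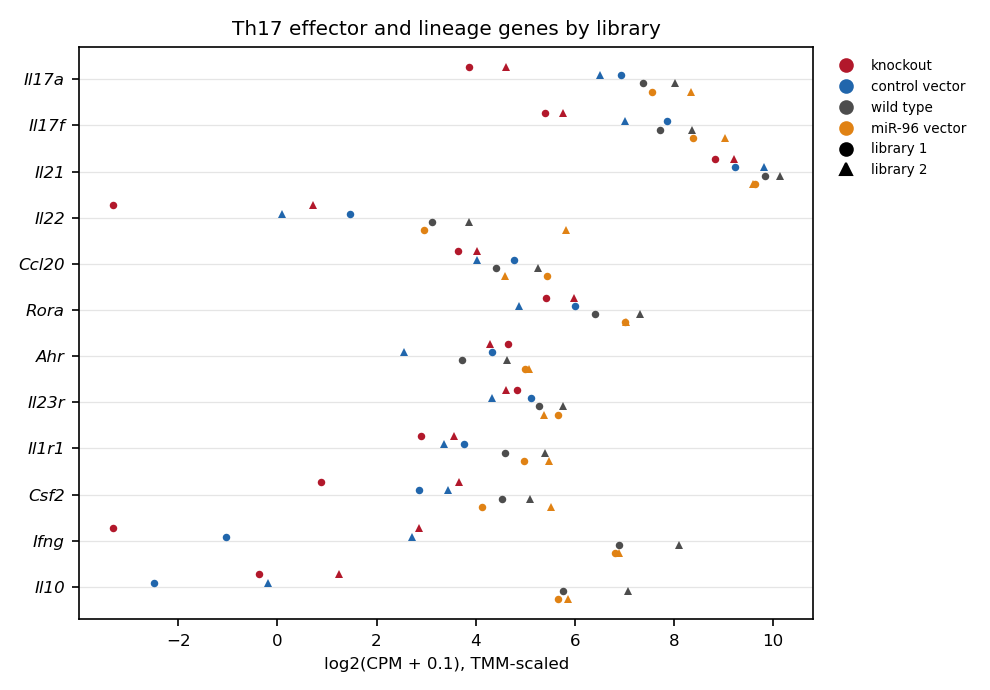
Levels of 12 Th17 effector and lineage genes as log2(CPM + 0.1) in each of the 8 libraries, with circles for library 1 and triangles for library 2 of a group. For Il17a and Il17f both knockout libraries lie below the other 6, while for Rora and Il23r the knockout and control vector libraries overlap.

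Tnfrsf8 (chromosome 4, 145267137 to 145315164), which encodes CD30, a receptor of the tumour necrosis factor (TNF) family on activated T cells, fell in knockout cells. It had 5.52 and 9.91 CPM in the knockout libraries, against 37.1 and 35.4 CPM in control vector libraries, a log2 fold change of -2.22 ± 0.30 (adjusted p = 0.0277, edgeR), and 38.6 and 59.6 CPM in wild type. The difference from wild type was -2.66 (adjusted p = 0.025, and 0.216 without knockout library 1). Both knockout libraries were below the other 6. Of 23 tested genes of the TNF superfamily, Tnfrsf8 was the 1 called, and DESeq2 called 1 higher and 3 lower. The median of the 23 was -0.07 and turned to 0.05 and 0.07 without control vector library 1 or 2. Tnfrsf18, which encodes the costimulatory receptor GITR, had 287 and 246 CPM in the knockout libraries, against 159.8 and 155 CPM in control vector libraries (adjusted p = 0.16), and Cd40lg, the ligand by which T cells help B cells, had 38.2 and 72.1 CPM in the knockout libraries, against 79.9 and 173 CPM in control vector libraries (adjusted p = 0.279).

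The other called falls were smaller or at lower levels. Tagap, which encodes a GTPase-activating protein that acts in T cell receptor signalling, had 75.1 and 85.3 CPM in the knockout libraries, against 165 and 169 CPM in control vector libraries (log2 fold change -1.06 ± 0.15, adjusted p = 0.0369), and wild type had 142 and 155 CPM. Parp3, whose product acts in DNA break repair, had 25.6 and 30.0 CPM in the knockout libraries, against 100.4 and 89.9 CPM in control vector libraries (log2 fold change -1.78 ± 0.26, adjusted p = 0.0378), with wild type in between at 69.4 and 42.2 CPM. C3, the central component of complement, had 2.56 and 2.99 CPM in the knockout libraries, against 14.5 and 17.9 CPM in control vector libraries (log2 fold change -2.54 ± 0.38, adjusted p = 0.0385), and wild type had 8.32 and 5.77 CPM. These 3 genes were called in no fit that left out 1 library, with adjusted p up to 0.352 for Tagap and up to 0.399 for each of Parp3 and C3.

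**Figure D3:**
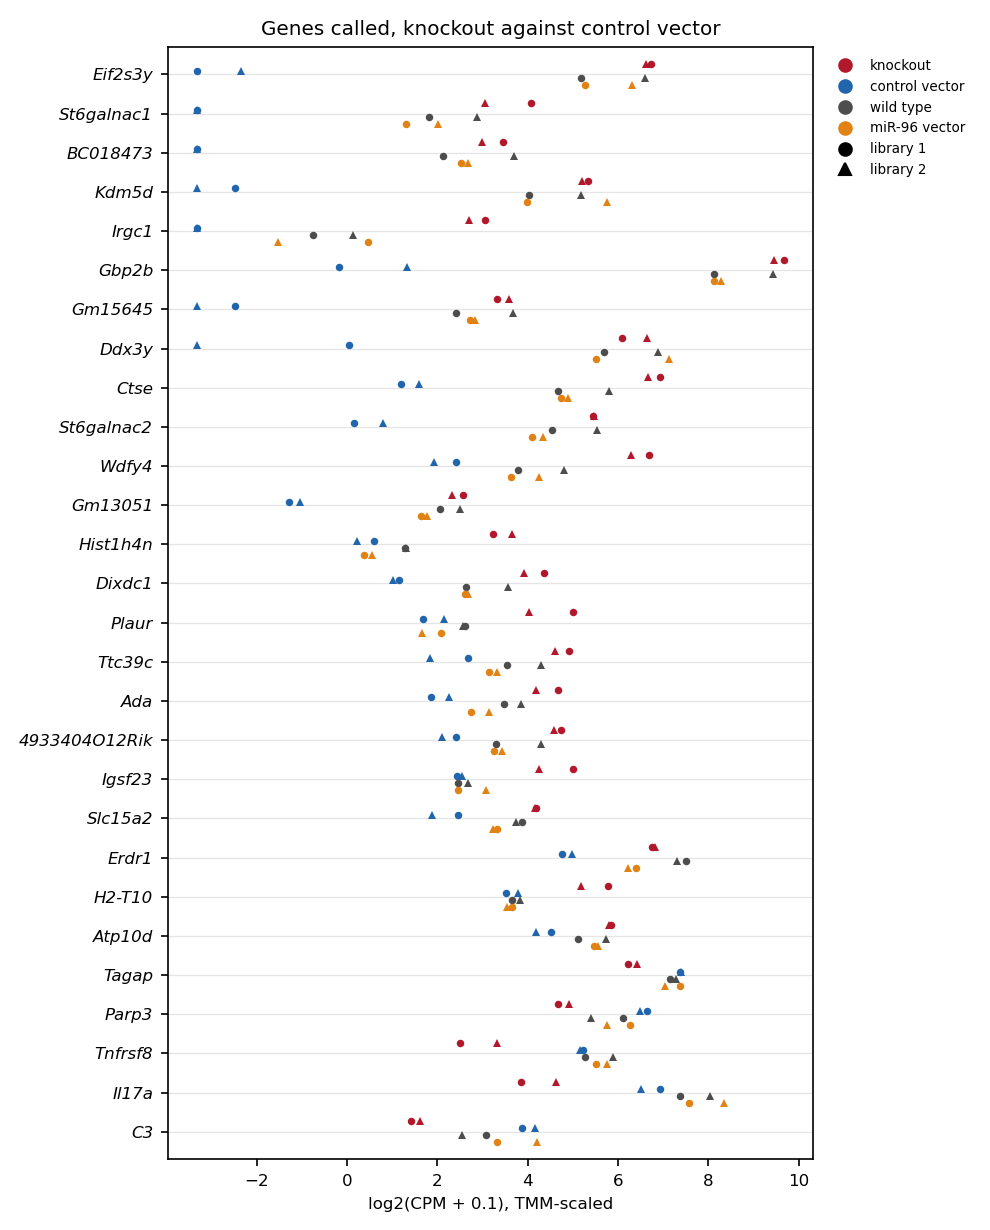
Levels of the 28 called genes as log2(CPM + 0.1) in the 8 libraries, ordered by log2 fold change of knockout over control vector, with circles for library 1 and triangles for library 2 of a group. For several of the genes that rose, such as Gbp2b and St6galnac2, wild-type and miR-96 vector libraries lie near the knockout ones and the control vector libraries stand apart, while for Plaur, Igsf23 and H2-T10 the knockout libraries stand apart.

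Gbp2b (chromosome 3, 142594847 to 142619179, plus strand), which encodes a guanylate-binding protein, 1 of a family of interferon-inducible GTPases that attack intracellular pathogens, had the smallest adjusted p. It stood at 817 and 705 CPM in the knockout libraries, against 0.781 and 2.42 CPM in control vector libraries, a log2 fold change of 8.94 ± 0.59 (adjusted p = 0.00127, edgeR). Wild type had 278 and 694 CPM and miR-96 vector cells 278 and 312 CPM, so that control vector cells were the group that stood apart. The difference between knockout and wild type was not called (log2 fold change 0.65, adjusted p = 0.264). Gbp2, a close relative whose reads may be shared with it, differed the other way, with 422 and 396 CPM in the knockout libraries, against 663 and 689 CPM in control vector libraries (adjusted p = 0.114), which did not pass the test. How reads were split between close copies is not stated, and the value of Gbp2b is uncertain to that degree.

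The promoter of Gbp2b is shown because this gene has the call with the smallest p and belongs to an interferon-induced family. Its 300 bases (chr3:142594597-142594896, plus strand, GRCm38.p6, RefSeq) hold 1 match, in capitals and on the minus strand, to a core of the interferon-stimulated response element, 2 blocks of GAAA with 2 bases between them, 137 bases before the start. Searched on both strands, this element was in 3.44% of the 32851 promoters. The interferon-gamma activated sequence TTCNNNGAA, found in 8.3% of promoters, was not in this window.
Gbp2b promoter: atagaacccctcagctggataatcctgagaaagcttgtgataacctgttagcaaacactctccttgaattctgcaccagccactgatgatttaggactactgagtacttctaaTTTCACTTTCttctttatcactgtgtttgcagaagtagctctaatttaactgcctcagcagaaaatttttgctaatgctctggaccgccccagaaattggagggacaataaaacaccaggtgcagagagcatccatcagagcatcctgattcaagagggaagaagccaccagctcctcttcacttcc

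No other gene was called in a list of guanylate-binding proteins and interferon-inducible relatives. Irgc1, a related gene that this list does not hold, was called and is described with its neighbour Plaur. Of 17 listed genes tested, Gbp2b was the 1 called by edgeR, DESeq2 called 3 higher and 1 lower, and the median log2 fold change was 0.04, with 9 members above 0 and 8 below. Gbp5 had 268 and 222 CPM in the knockout libraries, against 122 and 128 CPM in control vector libraries (adjusted p = 0.0867), and Irgm1, which directs these GTPases to membranes, had 42.8 and 80.5 CPM in the knockout libraries, against 40.3 and 86.8 CPM in control vector libraries (adjusted p = 0.975). The median moved to -0.49 without control vector library 1 and to 0.85 without control vector library 2, and to 0.42 and -0.57 without knockout library 1 or 2, so its sign rests on single libraries. Genes stimulated by type I interferon had a median of 0.41 over 23 tested members, 18 of them above 0 against 50.4% of all genes. None was called by edgeR, 5 were higher and 1 lower at an unadjusted p under 0.05, DESeq2 called 2 higher, and the median was 0.05 without control vector library 1 and 0.22 without knockout library 1. Xaf1, a proapoptotic interferon-induced gene, had 58.4 and 27.6 CPM in the knockout libraries, against 7.42 and 10.7 CPM in control vector libraries (log2 fold change 2.25 ± 0.41, adjusted p = 0.0735), and Ifi44 had 20.5 and 12.4 CPM in the knockout libraries, against 1.87 and 4.84 CPM in control vector libraries (adjusted p = 0.119). Stat2, a transcription factor of interferon signalling, had a log2 fold change of 0.26 (adjusted p = 0.534).

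H2-T10 (chromosome 17, 36115876 to 36121465), a nonclassical major histocompatibility complex (MHC) class I gene annotated as a polymorphic pseudogene, rose in knockout cells. Its level was 54.5 and 36.4 CPM in the knockout libraries, against 11.4 and 13.8 CPM in control vector libraries (log2 fold change 1.85 ± 0.24, adjusted p = 0.0187), and wild-type cells had 12.5 and 14.2 CPM. Both knockout libraries were above the other 6, and the rise against wild type was 1.76 (adjusted p = 0.025, and 0.216 without knockout library 1). Close relatives that can share its reads were not called against control vector. H2-T22 had 83.7 and 55.9 CPM in the knockout libraries, against 34.1 and 50.8 CPM in control vector libraries (adjusted p = 0.3). H2-T9 had 107 and 87.3 CPM in the knockout libraries, against 76.1 and 52.8 CPM in control vector libraries (adjusted p = 0.337). Against wild type H2-T9 was called higher, as H2-T10 was (log2 fold change 0.85, adjusted p = 0.0492, edgeR). H2-T22 was not called against wild type (log2 fold change 0.32, adjusted p = 0.41, edgeR). None of the 16 genes of MHC class I presentation and the immunoproteasome was called by edgeR or DESeq2, 2 had an unadjusted p under 0.05, both higher, and their median was 0.23. B2m and H2-K1, the light chain and a classical heavy chain of class I, had log2 fold changes of 0.21 and 0.34 (adjusted p = 0.607 and 0.403).

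On chromosome 11, 3 neighbouring genes rose together. St6galnac2 (116676703 to 116695782), which encodes a sialyltransferase of O-linked sugars, had 43.6 and 44.4 CPM in the knockout libraries, against 1.02 and 1.65 CPM in control vector libraries (log2 fold change 5.06 ± 0.40, adjusted p = 0.00148). St6galnac1 (116765025 to 116775507, minus strand), the sialyltransferase that makes the sialyl-Tn antigen, had 16.8 and 8.24 CPM in the knockout libraries and no count in either control vector library, at least 94.6-fold higher when the control vector group is set to 3 counts over the group. BC018473 (116752167 to 116759373), annotated as an antisense RNA and with strand use in counting not given, had 10.9 and 7.88 CPM in knockout cells, against no count in control vector cells, at least 71.7-fold higher. Adjusted p was 0.0187 for each of St6galnac1 and BC018473. Wild-type cells had 23.1 and 46 CPM of St6galnac2, 3.43 and 7.26 CPM of St6galnac1 and 4.28 and 12.8 CPM of BC018473, and none of the 3 was called against wild type (adjusted p = 0.445, 0.138 and 0.88). Control vector cells were thus the group with little or no signal at this locus. Genes on either side were not called: 1810032O08Rik, just before St6galnac2, had a log2 fold change of 0.14 (adjusted p = 0.8), and Jmjd6, a hydroxylase gene beyond St6galnac1, one of 0.34 (adjusted p = 0.311).

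Ctse (chromosome 1, 131638306 to 131675505), which encodes the aspartic protease cathepsin E, rose in knockout cells to 122 and 102 CPM, against 2.19 and 2.91 CPM in control vector cells (log2 fold change 5.47 ± 0.40, adjusted p = 0.0014). Wild type lay between them at 25.5 and 55.7 CPM, and the rise against wild type was 1.46 (adjusted p = 0.0298). Wdfy4 (chromosome 14), known for its part in cross-presentation by dendritic cells, had 102 and 78.3 CPM in the knockout libraries, against 5.23 and 3.68 CPM in control vector libraries (log2 fold change 4.33 ± 0.39, adjusted p = 0.00293) and 13.6 and 27.6 CPM in wild type, a rise of 2.12 over wild type (adjusted p = 0.025). Both genes were called whichever of the 4 libraries was left out, but without knockout library 1 their difference from wild type was not called (adjusted p = 0.23 for Ctse and 0.216 for Wdfy4). Cathepsin E and Wdfy4 are also made by myeloid cells. The summed level of 14 myeloid and dendritic markers was 21.1 and 11.5 CPM in the knockout libraries, against 23.7 and 10.2 CPM in the control vector libraries. In both knockout libraries 6 of the 14 had no count, among them Csf1r and Adgre1, which define macrophages. The 4 markers tested had log2 fold changes of 1.95 for Cd14, a receptor of bacterial lipopolysaccharide, 0.22 for Cybb, -0.09 for Cd68 and -0.31 for Mpeg1. Cd14 had 1.48 and 1.55 CPM in the knockout libraries, against 0.547 and 0.194 CPM in control vector libraries (adjusted p = 0.374). It entered the test through the knockout libraries alone, so it could only be higher. The part of such cells in the rise of Ctse and Wdfy4 was not tested.

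Plaur (chromosome 7, 24462484 to 24475968), which encodes the receptor of urokinase and helps cells to cleave matrix, rose in knockout cells. It had 32.2 and 16.2 CPM in the knockout libraries, against 3.12 and 4.36 CPM in control vector libraries (log2 fold change 2.69 ± 0.38, adjusted p = 0.0341), and wild type had 6.00 and 5.87 CPM, a difference of 2.02 (adjusted p = 0.0258, and 0.219 without knockout library 1). Both knockout libraries were above the other 6, and the call against control vector was kept only without knockout library 2. Irgc1 (24431922 to 24452297), the adjacent gene and a relative of the immunity-related GTPases, had 8.21 and 6.45 CPM in the knockout libraries and no count in either control vector library, at least 56.1-fold higher (adjusted p = 0.0357). Wild type had 0.49 and 0.994 CPM of Irgc1. Igsf23, an immunoglobulin superfamily gene also on chromosome 7 (19937305 to 19950756), had 31.8 and 19 CPM in the knockout libraries, against 5.31 and 5.72 CPM in control vector libraries (log2 fold change 2.20 ± 0.33, adjusted p = 0.0404), beside 5.39 and 6.26 CPM in wild type. For all 3 genes wild type was closer in CPM to control vector than to knockout. With no count in control vector cells, Irgc1 has no reliable log2 distance to that group. Irgc1 and Igsf23 were also called against wild type, with log2 fold changes of 3.25 and 2.12 (adjusted p = 0.032 and 0.025, edgeR). As with every call against wild type, these were not kept without knockout library 1.

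Ada (chromosome 2), the enzyme that clears adenosine, rose to 25.6 and 18 CPM in knockout cells, against 3.51 and 4.65 CPM in control vector cells (log2 fold change 2.42 ± 0.31, adjusted p = 0.0187), with 11 and 14.4 CPM in wild type. Slc15a2 (chromosome 16), a peptide transporter that carries bacterial dipeptides, had 18 and 17.7 CPM in the knockout libraries, against 5.39 and 3.58 CPM in control vector libraries (log2 fold change 1.98 ± 0.26, adjusted p = 0.0238). Dixdc1 (chromosome 9), a component of Wnt signalling, had 20.3 and 14.9 CPM in the knockout libraries, against 2.11 and 1.94 CPM in control vector libraries (log2 fold change 3.11 ± 0.38, adjusted p = 0.0187). Wild type had 14.6 and 13.2 CPM of Slc15a2 and 6.12 and 11.7 CPM of Dixdc1. In all 3 genes wild type lay between control vector and knockout, and none was called against wild type (adjusted p = 0.0955, 0.325 and 0.0825). Atp10d (chromosome 5), a lipid flippase gene annotated as a polymorphic pseudogene in this reference strain, had a log2 fold change of 1.47 ± 0.22 (adjusted p = 0.0406). Ttc39c (chromosome 18) had one of 2.45 ± 0.35 (adjusted p = 0.0352), and the long noncoding RNA 4933404O12Rik (chromosome 5) one of 2.41 ± 0.34 (adjusted p = 0.0331). Hist1h4n (chromosome 13), 1 of many near-identical histone H4 genes and so uncertain, had 9.29 and 12.5 CPM in the knockout libraries, against 1.41 and 1.07 CPM in control vector libraries (log2 fold change 3.12 ± 0.40, adjusted p = 0.0187). Wild type had 2.33 and 2.39 CPM of Hist1h4n, and the rise against wild type was also called (log2 fold change 2.21, adjusted p = 0.025), though not without knockout library 1. The transcribed pseudogene Gm15645 had 74 and 100 counts in the knockout libraries, against 1 and 0 in the control vector libraries, a ratio of 255 with a 95% interval of 45.1 to 10115. Gm13051, with no matching annotation, had 43 and 41 counts in the knockout libraries, against 4 and 4 in the control vector libraries, a ratio of 15.4 (7.45 to 36.8). These intervals are exact and cover counting error only.

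Genes of the Y chromosome separated the groups. Eif2s3y, a translation initiation factor gene, had 105 and 97.9 CPM in the knockout libraries, against 0 and 0.0969 CPM in the control vector libraries, a ratio of 2346 (95% interval 420 to 92717, adjusted p = 0.00244). Kdm5d, a histone demethylase gene, and Ddx3y, an RNA helicase gene, rose too, with ratios of 888 (159 to 35144) and 163 (93.0 to 316) and adjusted p of 0.0146 and 0.0187. Uty, a relative of histone demethylases, was at least 238-fold higher, with 487 counts in knockout cells against none in control vector cells, but was not called (adjusted p = 0.055). Usp9y and Zfy1 were at 0 in all 4 libraries. Xist, the RNA that silences 1 X chromosome in female cells, had 0 and 144 CPM in the knockout libraries, against 1215 and 1484 CPM in control vector libraries, and was not called (adjusted p = 0.305). Knockout library 1 thus had the Y-linked messages without Xist, knockout library 2 had both, and the control vector libraries had Xist with next to no Y-linked message. Wild-type libraries had both, with 1223 and 391 CPM of Xist and 36.2 and 97.3 CPM of Eif2s3y. The miR-96 vector libraries had 38.4 and 79 CPM of Eif2s3y and 45.5 and 139 CPM of Ddx3y. Control vector was thus the only group with next to no Y-linked message. Sex of the cells, genotype and experiment cannot be told apart in the 28 calls. Leaving out the sex-linked genes left 25 calls of 11529 genes. Erdr1, at the pseudoautosomal end of the X chromosome, had 108 and 112 CPM in the knockout libraries, against 27 and 31.6 CPM in control vector libraries (log2 fold change 1.91 ± 0.15, adjusted p = 0.00148). Wild type had more than either, 182 and 159 CPM, and miR-96 vector cells had 84.1 and 74.4 CPM. Against wild type Erdr1 was called lower in the knockout (log2 fold change -0.63, adjusted p = 0.032, edgeR), a call that rests on both knockout libraries.

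Some large differences were not called. An absolute log2 fold change over 3 without a call was found in 52 genes, 25 higher and 27 lower, and those named here were chosen after their values were seen. Emilin2, an extracellular matrix gene, had 69.9 and 43 CPM in the knockout libraries, against 8.59 and 2.13 CPM in control vector libraries (log2 fold change 3.36 ± 0.61, adjusted p = 0.0716). Wild type had 4.28 and 9.74 CPM, so that both knockout libraries were the highest of these 6. Nlrp3, which encodes an inflammasome sensor, had 0.404 and 0.717 CPM in the knockout libraries, against 5.94 and 3.68 CPM in control vector libraries (adjusted p = 0.0704), beside 3.92 and 3.28 CPM in wild type. Timd2, a gene of the TIM receptor family, had 1.08 and 0.955 CPM in the knockout libraries, against 10.3 and 19.3 CPM in control vector libraries (adjusted p = 0.065), beside 7.71 and 1.99 CPM in wild type. Both genes were at their lowest in the knockout libraries. Cyp1a1 and Cyp1b1, which encode cytochrome P450 enzymes induced through the aryl hydrocarbon receptor, differed mainly in the control vector cells. Cyp1a1 had no count in either knockout library, against 10.2 and 6.59 CPM in control vector cells and 0.245 and 0.398 CPM in wild type (adjusted p = 0.153). Cyp1b1 had 0.135 and 0 CPM in the knockout libraries, against 2.89 and 1.16 CPM in control vector libraries, and 0.122 and 0.199 CPM in wild type (adjusted p = 0.28). Nlrp3, Timd2, Cyp1a1 and Cyp1b1 entered the test through the control vector libraries alone, so they could only be lower in the knockout.

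Among gene lists covering metabolism and growth, no member was called, and the lists are described by their counts. Of all genes, 13.9% had an unadjusted p under 0.05 and DESeq2 called 2.35%. All 22 tested genes of glycolysis and hypoxia had a log2 fold change above 0, and 17 had both knockout libraries above both control vector libraries, against 22.7% of all genes. Their median was 0.61, with a range of 0.42 to 0.76 over the fits tried and 0.42 without knockout library 1. At an unadjusted p under 0.05 there were 16, and DESeq2 called 7. Tpi1, triosephosphate isomerase, had 1448 and 1011 CPM in the knockout libraries, against 632 and 507 CPM in control vector libraries (adjusted p = 0.107). Hk1, a hexokinase that starts the pathway, had 459 and 317 CPM in the knockout libraries, against 235 and 188 CPM in control vector libraries (adjusted p = 0.119), and Slc16a3, a lactate exporter, had 275 and 182 CPM in the knockout libraries, against 132 and 101 CPM in control vector libraries (adjusted p = 0.164). Pkm, pyruvate kinase, had 4497 and 3580.4 CPM in the knockout libraries, against 3231 and 2767 CPM in control vector libraries (adjusted p = 0.311), and Pgk1 overlapped between groups (log2 fold change 0.13, adjusted p = 0.803). In each of these 5 genes knockout library 1 was higher than knockout library 2, except that in Pgk1 control vector library 1 was the highest of the 4.

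Cholesterol synthesis and uptake had 19 of 22 tested members above 0 and a median of 0.48, which was 0.17 without knockout library 1 and 0.71 without knockout library 2. None was called by edgeR, 12 were higher at an unadjusted p under 0.05, and DESeq2 called 2. Dhcr7, which makes the last step to cholesterol, had 55.5 and 37.6 CPM in the knockout libraries, against 25.4 and 21.6 CPM in control vector libraries (adjusted p = 0.119). Stard4, a sterol carrier, had 156 and 125 CPM in the knockout libraries, against 87 and 75.2 CPM in control vector libraries (adjusted p = 0.112). Hmgcs1, an early enzyme of the mevalonate pathway, had 588 and 419.7 CPM in the knockout libraries, against 362 and 285 CPM in control vector libraries (adjusted p = 0.233), and Srebf2, the transcription factor gene of the pathway, had a log2 fold change of 0.38 (adjusted p = 0.343). Knockout library 1 was the higher of the knockout libraries in all 4. Fatty acid synthesis had a median of 0.30 over 12 genes, with 5 at an unadjusted p under 0.05, all higher, and none called by edgeR or DESeq2, and its median was 0.13 without knockout library 1. Its members Scd2 and Fasn went opposite ways, with log2 fold changes of 0.36 and -0.34 (adjusted p = 0.371 and 0.428). The 5 genes of cholesterol efflux had a median of 0.20, 0.01 without control vector library 1, and none at an unadjusted p under 0.05, with 0.20 for the exporter Abcg1 and 0.23 for the sterol sensor Nr1h2.

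All 22 genes of the Myc and ribosome biogenesis list had a log2 fold change below 0. The median was -0.44, and it was -0.13 without knockout library 1, -0.85 without knockout library 2 and -0.27 without control vector library 2, so its size rests on single libraries. None was called by edgeR, 7 were lower at an unadjusted p under 0.05, and DESeq2 called 2 lower. Odc1, the first enzyme of polyamine synthesis, had 445 and 534 CPM in the knockout libraries, against 817 and 784 CPM in control vector libraries (adjusted p = 0.15). Rrs1, a ribosome assembly factor, had 39.8 and 76 CPM in the knockout libraries, against 102 and 138 CPM in control vector libraries (adjusted p = 0.192). Ncl and Npm1, proteins of the nucleolus, had log2 fold changes of -0.24 and -0.07 (adjusted p = 0.617 and 0.854), and Myc itself one of -0.19 (adjusted p = 0.549). The 28 genes of cytosolic ribosomal proteins stood at a median of 0.11, which turned to -0.03 without knockout library 2, with Rpl4 at -0.01 and Rpsa at 0.04, and the 25 of oxidative phosphorylation at 0.15, with the ATP synthase genes Atp5a1 at 0.05 and Atp5b at 0.07. No member of the last 2 lists had an unadjusted p under 0.05 and none was called by edgeR or DESeq2.

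Replication-dependent histone genes, whose messages normally lack a poly(A) tail, had the highest median among the lists of metabolism, growth and cell cycle. All 8 tested of 13 were above 0, with a median of 1.76, 7 had an unadjusted p under 0.05, and DESeq2 called 2. None of these 8 was called by edgeR, while Hist1h4n, a histone H4 gene that this list does not hold, was called as given above. Hist1h1c, a linker histone, had 21.9 and 23.5 CPM in the knockout libraries, against 11.2 and 3.39 CPM in control vector libraries (adjusted p = 0.207), and Hist1h2bc overlapped between groups with 10.4 and 11.3 CPM in the knockout libraries, against 13.2 and 5.72 CPM in control vector libraries (adjusted p = 0.912). All 8 genes were at low levels and close copies of others, and their counts are uncertain. No gene of the cell cycle lists was called. The 25 genes of DNA replication had a median of 0.01, -0.23 and 0.29 without control vector library 1 or 2, and none at an unadjusted p under 0.05, and Mcm6, part of the replicative helicase, and Pcna, the polymerase clamp, had log2 fold changes of -0.31 and 0.04. Among 25 genes of mitosis 23 were above 0 and the median was 0.26, but it was 0.02 without knockout library 1. At an unadjusted p under 0.05 there were 3, all higher, none was called by edgeR or DESeq2, and the proliferation markers Mki67 and Top2a had log2 fold changes of 0.06 and 0.17 with overlapping groups. Cyclin genes of G1 and inhibitors of their kinases had a median of -0.07 (0.04 without control vector library 2) over 17 genes, of which 3 had an unadjusted p under 0.05 and DESeq2 called 1, with Ccnd2 at -0.31 and Cdk6 at -0.32.

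**Figure D4:**
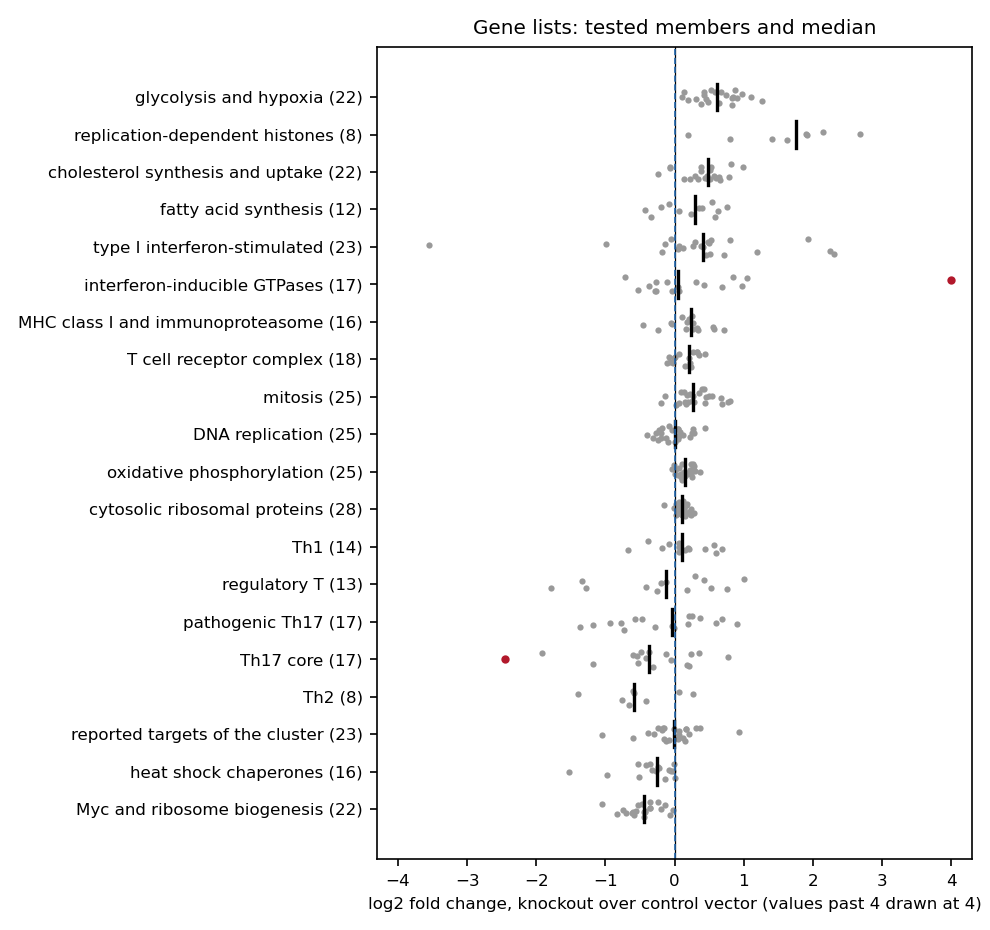
Log2 fold change of knockout over control vector for the tested members of 20 gene lists, with the number tested in brackets. Each dot is a gene, red where called, the short black bar is the list's median, and the dashed line is the median of all 11534 genes. The glycolysis list lies wholly above 0 and the Myc and ribosome biogenesis list wholly below it, with no called member in either.

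No gene in the lists of other T helper lineages, cytokine receptors and TGF-beta signalling was called by edgeR. None of the 14 Th1 genes was called by edgeR or DESeq2 (median 0.11, 2 at an unadjusted p under 0.05), with the cytokine receptor gene Il12rb2 at a log2 fold change of 0.07. The Th1 median was 0.44 without knockout library 1 and turned to -0.16 without knockout library 2. None of the 8 tested Th2 genes was called by either tool (median -0.59, 2 at an unadjusted p under 0.05), with Ccr4 at -0.61 and Stat6 at 0.26, and the Th2 median was -0.24 without knockout library 1 and turned to 0.20 without control vector library 2. Of 13 regulatory T genes none was called by edgeR and 3 by DESeq2 (median -0.13, and 0.01 without knockout library 1), and Foxp3, which defines these cells, was at 0.404 and 0 CPM in the knockout libraries, against 0.156 and 0.291 CPM in the control vector libraries. Ctla4, an inhibitory receptor, had 404 and 318 CPM in the knockout libraries, against 225 and 136 CPM in control vector libraries (adjusted p = 0.184). Among 9 follicular helper genes, Bcl6, the lineage's transcription factor gene, had 8.61 and 11.7 CPM in the knockout libraries, against 23.4 and 21.6 CPM in control vector libraries (adjusted p = 0.0995), and none was called by edgeR while DESeq2 called 1 higher and 1 lower. Btla and Cd200 of that list had log2 fold changes of -0.17 and -0.35. For 17 receptors of the IL-1, IL-6, IL-23 and IL-2 families the median was -0.16, with Il2ra at -0.13 and Il4ra at -0.17, none called by edgeR and 1 by DESeq2. For 22 genes of TGF-beta receptors and SMADs it was -0.09, with Tgfb1 at 0.42 and Ski at -0.24, and none called by either tool. An unadjusted p under 0.05 was found for 4 of 13 regulatory T, 4 of 9 follicular helper, 1 of 17 cytokine receptor and 4 of 22 TGF-beta genes. Over all genes tested, 13.9% had such a p and DESeq2 called 2.35%.

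Lists of surface and signalling genes had median log2 fold changes between -0.21 and 0.21 and no member called by edgeR. The 18 genes of the T cell receptor complex had a median of 0.21, with the phosphatase Ptprc at -0.02, and 2 at an unadjusted p under 0.05. Naive T and homing genes had a median of 0.07 over 13 members, with the lymph node homing receptor Ccr7 at 0.28 and Satb1 at -0.24. Chemokine receptors had one of 0.15 over 11, which turned to -0.18 without knockout library 2 and was 0.62 without control vector library 1. Integrins stood at -0.03 over 15, with Itgal and Itgb2, the chains of LFA-1, at -0.19 and 0.13, and checkpoint receptors with ectonucleotidases at -0.18 over 11. The checkpoint median was -0.56 without knockout library 2 and -0.66 without control vector library 1, and that of integrins turned to 0.07 without knockout library 2. DESeq2 called 1 chemokine receptor, 2 checkpoint genes and none of the T cell receptor, naive and integrin lists, and at an unadjusted p under 0.05 there were 3 chemokine receptors, 5 checkpoint genes, 3 integrins and 2 naive genes. Among 19 immediate early genes, whose transcription follows receptor signals within minutes, Fosb had 14 and 12.8 CPM in the knockout libraries, against 2.66 and 4.36 CPM in control vector libraries (adjusted p = 0.0836) and Egr3 had 45.4 and 77.2 CPM in the knockout libraries, against 101 and 163 CPM in control vector libraries (adjusted p = 0.176). DESeq2 called 2 higher and 3 lower of the 19, and Junb stood at -0.08. Lists of NF-kB genes (-0.12 over 16, with Nfkb1 at -0.62 and Nfkb2 at -0.31) and apoptosis regulators (-0.21 over 19, but -0.08 without knockout library 1 and -0.04 without control vector library 1, with Bcl2 at 0.21 and Mcl1 at 0.00) had no member called by DESeq2, and 2 and 1 at an unadjusted p under 0.05.

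Of 16 heat shock chaperones 15 were below 0, with a median of -0.26, which was -0.10 without knockout library 1 and -0.10 without control vector library 2, and none was called by edgeR and 1 by DESeq2. Hspa1a, the inducible HSP70, had 5.11 and 4.90 CPM in the knockout libraries, against 14.5 and 14.3 CPM in control vector libraries (adjusted p = 0.112), while the constitutive Hspa8 and Hsp90ab1 overlapped between groups at -0.35 and -0.05. Of 22 genes of amino acid and endoplasmic reticulum stress 17 were above 0 (median 0.21), 4 had an unadjusted p under 0.05, and none was called by edgeR or DESeq2, with Hspa5 at 0.07 and Hsp90b1 at 0.38. The 13 genes of the microRNA machinery had a median of -0.18, 4 of them lower at an unadjusted p under 0.05 and none called by either tool. Of all genes tested, 13.9% had such a p. Ago2, the protein that holds the microRNA, had 204 and 218 CPM in the knockout libraries, against 246 and 234 CPM in control vector libraries (adjusted p = 0.59), and Tnrc6a, its silencing partner, had 97.3 and 137 CPM in the knockout libraries, against 143 and 189.7 CPM in control vector libraries (adjusted p = 0.332).

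No reported target of the cluster was called. Of 23 tested, 11 were above 0 and 12 below, the median was 0.00, none was called by edgeR or DESeq2, and 3 had an unadjusted p under 0.05, 1 higher and 2 lower. Foxo4, a relative of Foxo1, had 51.7 and 37.9 CPM in the knockout libraries, against 26.6 and 20.3 CPM in control vector libraries (adjusted p = 0.179), and Itgb1, an integrin chain, had 218 and 311 CPM in the knockout libraries, against 278 and 375 CPM in control vector libraries (adjusted p = 0.53). Ezr and Bcl2, the list's members with the highest average CPM, had log2 fold changes of 0.00 and 0.21.

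Genes whose longest 3′ UTR (GENCODE M21) holds a 7-base match to a seed of the cluster were compared with those that hold none. The 3170 genes with a site for any of the 3 microRNAs had a median log2 fold change of -0.03, with 4 called higher and 1 lower, and the 7638 genes without one a median of 0.02, with 14 called higher and 4 lower. By microRNA the medians were -0.02 for 1131 genes with a miR-96 site, -0.03 for 1487 with a miR-182 site and -0.05 for 1290 with a miR-183 site. Genes with sites had longer 3′ UTRs, with a median of 2445 bases against 1013.5 bases. Restricting to sites followed by an A left 1100 genes with a median of -0.04. None of these was called by edgeR, 65 were higher and 86 lower at an unadjusted p under 0.05, and DESeq2 called 8 higher and 13 lower. Over all 11534 genes, edgeR called 0.243%, DESeq2 called 2.35% and 13.9% had an unadjusted p under 0.05. Beside these shares the counts above do not set genes with sites apart. Among called genes, Gbp2b and Plaur held 1 miR-96 site each, H2-T10 held 1 miR-183 site, Ddx3y 1 site each for miR-182 and miR-96, and Tnfrsf8, which fell, 2 miR-183 sites. Il17a held none in its 637 bases, and Foxo1 held 1 site for each microRNA in 6240 bases.

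The sites below are shown because they belong to the called genes outside the Y chromosome that carry a match, with the miR-96 site of Foxo1 for comparison. Each is given as the mRNA strand in DNA letters, with the bases that pair with the seed in capitals and the name of the microRNA after the gene. A match is a description of letters and not evidence of binding.
Gbp2b, miR-96-5p, bases 818 to 846 of its 3′ UTR: tcataatcacaGTGCCAActcttgtgaaa
Plaur, miR-96-5p, bases 339 to 367 of its 3′ UTR: acggcttcctgGTGCCAAggctcccacgt
H2-T10, miR-183-5p, bases 159 to 187 of its 3′ UTR: cagagttacacGTGCCATgtggaccatga
Tnfrsf8, miR-183-5p, bases 922 to 950 of its 3′ UTR: cttaacactttGTGCCATtatctgttcca
Foxo1, miR-96-5p, bases 249 to 277 of its 3′ UTR: attacaatgaaGTGCCAAactcactacac

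No marker of another cell type was called by edgeR in this comparison. In bulk RNA fewer cells of a type and less RNA per cell cannot be told apart. The 12 B and plasma cell markers summed to 17.9 and 19.5 CPM in the knockout libraries, against 29 and 17.9 CPM in control vector libraries, and were higher at 80.7 and 164 CPM in wild type. Among those tested, Cd79a, part of the B cell receptor complex, had a log2 fold change of 1.91, and Ebf1, a transcription factor gene of B cells, one of -1.18 (adjusted p = 0.181 and 0.15). Cd79a had 15 and 11 counts in the knockout libraries, against 6 and 4 in control vector libraries. It entered the test through the knockout libraries alone, so it could only be higher. The antibody joining chain Jchain had 1.21 and 0.836 CPM in the knockout libraries, against 0.0781 and 0.194 CPM in the control vector libraries while wild type had 24.5 and 64.5 CPM. In the comparison with wild type the markers of such cells moved with the group, and their part in that result was not tested. The 13 CD8 T and NK markers summed to 454 and 782 CPM in the knockout libraries, against 219 and 594 CPM in the control vector libraries, nearly all of it Gzmb, and the NK markers Ncr1 and Klrb1c were at 0 in all 4 libraries. Nkg7 of that list had 30.4 and 19.8 CPM in the knockout libraries, against 12.7 and 7.36 CPM in control vector libraries (adjusted p = 0.187).

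Other lists rested on genes that T cells also express. Gamma delta and innate-like T markers summed to 97.4 and 89.8 CPM in the knockout libraries, against 101 and 74.7 CPM in the control vector libraries, mostly Rhoh and Il23r. Stromal markers were carried by Vim, with 1578 and 1360.1 CPM in the knockout libraries, against 1754 and 1511 CPM in control vector libraries, and Dcn, with 7.40 and 5.73 CPM in the knockout libraries, against 14.9 and 8.72 CPM in control vector libraries, while Col3a1 was at 0 in all 4 libraries. Endothelial markers were carried by Pecam1 (-0.03) and Egfl7 (0.67), with Cdh5 and Tek at 0 in both knockout libraries. Erythroid and platelet markers summed to 1.21 and 1.91 CPM in the knockout libraries, against 2.19 and 2.23 CPM in control vector libraries, and Itga2b, the 1 tested, had a log2 fold change of -0.56. The 9 tested MHC class II genes had a median of 0.10, with Cd74 at -0.47 and H2-Ab1 at 1.04, and 6 non-pathogenic Th17 genes one of -0.17, with Cd52 at -0.44. Neither list had a member called by edgeR or DESeq2. Over the lists of other cell types, all 3 tested B cell markers had an unadjusted p under 0.05, 2 higher and 1 lower. So did 1 of 6 CD8 T and NK, 1 of 3 gamma delta and 1 of 3 endothelial markers tested. DESeq2 called 1 B cell marker, lower, and 1 CD8 T and NK marker, higher. Over all genes tested these shares were 13.9% and 2.35%, and lists with so few tested markers allow no comparison with them.

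Wild type is the genotype's own control, and the test of knockout against wild type is also the test of whether knockout and wild type stand differently to the control vector. It called 1518 genes (13.2%), 787 higher (6.82%) and 731 lower (6.34%), with 3982 (34.5%) at an unadjusted p under 0.05, and its median absolute log2 fold change was 0.383, against 0.239 in the comparison with control vector. With upper-quartile scaling the split was 921 higher and 564 lower. This count rests on knockout library 1: without it 0 genes were called by edgeR (1826 at an unadjusted p under 0.05), and without knockout library 2 there were 1928. The 2 comparisons share the knockout libraries, so lists are given side by side. Some lists had medians of opposite sign. Interferon-inducible GTPases had a median of -1.41 against wild type with 6 of 17 called lower, beside 0.04 and 1 called higher against control vector. Th1 genes had -0.63 with 4 of 14 called lower, beside 0.11 and none. The next 5 lists kept their sign. Mitosis genes had a median of 1.42 against wild type with 21 of 25 called higher, beside 0.26 and none against control vector. Cholesterol synthesis had 0.92 with 18 of 22 called higher, beside 0.48 and none. The Myc and ribosome biogenesis list had -0.94 with 16 of 22 called lower, beside -0.44 and none. Glycolysis had 0.68 with 6 of 22 called higher, beside 0.61 and none. Th17 core genes had -0.97 with 6 of 17 called lower, beside -0.37 and 1. Without knockout library 1 no member of these 5 lists was called against wild type.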

How the data were processed

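The deposited table holds estimated counts per gene made by the authors, with symbols and 1 column per library. STAR 2.3.0, bcl2fastq 2.16.0.10, edgeR and Partek, with build mm10, are listed in the submitters' processing notes, without roles. The annotation used for counting and strand use are not given in the sources used here. Of 24453 lines, 27 held a spreadsheet date in place of a symbol and were left out (at most 0.243% of a library's counts). Values were rounded to whole counts, which matters most in knockout library 1. Symbols were joined to GENCODE M21 (GRCm38, to which mm10 corresponds), where 11110 of the 11534 genes tested matched 1 annotated gene. Total counts ran from 7142234 to 12452656, and 3 counts are 0.241 to 0.42 CPM.

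The tested set comprised 10692 genes at 10 or more counts in all 4 libraries, 55 that entered through the knockout libraries alone and 185 through the control vector libraries alone. Of the 12892 other genes, 8631 had no count in the 4 libraries. The 98 genes just inside the threshold had a median of 0.917 CPM and the 125 just outside it 0.866 CPM.

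The test was edgeR's quasi-likelihood test (glmQLFTest, edgeR 4.0.16, R 4.3.3) with TMM factors, fitted on all 8 libraries with a term for each of the 4 groups, so that they share 1 estimate of spread (4 residual degrees of freedom, common dispersion 0.0343, biological coefficient of variation 0.185). Benjamini-Hochberg adjustment was over 11534 genes, and called means an adjusted p under 0.05. Standard errors (SE) are the log2 fold change over the square root of F. On simulated counts for knockout against control vector (11534 genes, 100 changed at each size), 63% of 2-fold and 99% of 4-fold changes were recovered, with 3 false calls. The changed genes were drawn only from those above a floor of mean CPM, and every gene was given the spread typical of its level. Recovery among genes of low level, or noisier than others of their level, was therefore not measured. Confidence intervals (95%) of count ratios are exact, and a group with no count was set to 3 counts. Intervals and floors cover counting error only.

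By the rule for named genes these were the microRNAs of the cluster with Foxo1, then among called genes whose groups do not overlap and whose average log2 CPM reaches 3 the 12 largest rises and 12 largest falls, up to 3 called members of a list (otherwise the 2 with the highest average CPM, also for lists of other cell types), and all sex-linked genes listed. The other called genes, and further list members, were named after their values were seen. Some genes that the rule takes are not reported here. The comparison, the 45 gene lists and the tests were chosen with earlier results of these data known. Alternatives were RLE and upper-quartile factors, other filters, DESeq2 1.42.0, the 4 libraries alone, a replicate block, fits that leave out 1 library each (the lone library is then assumed to vary like the other groups), and no sex-linked genes. RLE and upper-quartile factors for knockout against wild type were added after seeing the data.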

Additional observations from a re-analysis of the deposited data

How the results depend on the processing

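The 28 calls of knockout against control vector were 28 with RLE factors, 24 with upper-quartile factors, 28 of 11851 genes with edgeR's own filter and 25 without sex-linked genes. They were 262 of 15795 genes without a filter (160 higher), 271 with DESeq2 (159 higher) and 46 with the 4 libraries alone, and 7 to 28 with 1 library left out. Of the 28, 28 were shared with DESeq2 and with the unfiltered fit and 27 with the 4-library fit. The 1518 calls of knockout against wild type were 2596 with those 4 libraries alone, 2210 with DESeq2, and 0 to 1928 with 1 knockout library left out.

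The duplicate numbers do not pair the libraries by any label. Same-numbered libraries deviated together in knockout and control vector (r = 0.358 across genes), but not in knockout and miR-96 vector (r = -0.171) or control vector and miR-96 vector (r = -0.275). A replicate block on these numbers gave 22 calls, sharing 20 with the 28 above, and 1288 against wild type.

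Upper-quartile factors moved the median log2 fold change of all genes to 0.03, and to 0.08 against wild type, where they split the 1485 calls into 921 higher and 564 lower. With 2 libraries per group, 2-fold changes were often missed in simulation, and the cause of differences between fits was not tested.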
